A study of Homo sapiens with 10 samples.

Results

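OLFM4 and 9 further genes known as intestinal stem cell markers were followed through 10 poly(A) RNA-seq libraries of LS180, an established human colorectal cancer cell line. The 10 genes, LGR5, ASCL2, SMOC2, PROX1, EPHB2, EPHB3, CD44, RGMB, MSI1 and OLFM4 itself, were found by symbol among 58870 genes in the deposited count table, and all 10 were present. They were selected on what earlier processing of these libraries had shown, since the swing of OLFM4 by library letter and by guide line was the reason for the choice. OLFM4 values are therefore given as a description without a test, and the calls of the other 9 markers are not independent support for any pattern.

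The study made CRISPR interference (CRISPRi) lines against RNASE1, a secreted ribonuclease. CRISPRi is a method in which a guide RNA brings a catalytically dead Cas9 to a gene's start and lowers its transcription. The 3 guide lines sg1, sg2 and sg3 and the 2 non-targeting control lines NTC1 and NTC2 are all established lines of LS180, were grown in DMEM with 10% serum and received no drug. Each line has 1 library lettered B and 1 lettered A. The labels do not say what the letters stand for or whether the 2 libraries of a line came from separate cultures, so the p-values measure the spread between these libraries only.

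The crypt base of the intestine holds stem cells that renew the epithelium under Wnt signalling. LGR5 is a receptor for R-spondins that strengthens the Wnt signal, and ASCL2 is a transcription factor that works with Wnt effectors to set stem cell identity. OLFM4 is a secreted glycoprotein that marks human crypt base stem cells and is raised in inflamed mucosa and in many colorectal tumours. Its gene is known to respond to Notch signalling in the mouse intestine and to NF-kB signalling in human cells.

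The promoter sequences of the 3 markers with the widest range over the libraries are shown, because these genes are set against each other throughout. They are RefSeq sequences of GRCh38.p14 on the plus strand, ending before the first annotated start in RefSeq and in GENCODE release 29. Capitals mark matches to cores of 3 factor families on either strand. These are TGGGAA for RBPJ, the DNA-binding partner of Notch, CTTTGA or CTTTGT for TCF/LEF, the Wnt effectors, and the NF-kB consensus. The regions are chr13:53028563-53028758 for OLFM4, chr5:98768382-98768631 for RGMB and chr6:168440934-168441150 for SMOC2.
OLFM4: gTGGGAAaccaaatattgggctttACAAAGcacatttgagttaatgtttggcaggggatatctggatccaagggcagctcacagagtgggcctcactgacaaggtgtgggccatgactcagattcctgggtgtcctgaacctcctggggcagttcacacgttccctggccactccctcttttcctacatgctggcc
RGMB: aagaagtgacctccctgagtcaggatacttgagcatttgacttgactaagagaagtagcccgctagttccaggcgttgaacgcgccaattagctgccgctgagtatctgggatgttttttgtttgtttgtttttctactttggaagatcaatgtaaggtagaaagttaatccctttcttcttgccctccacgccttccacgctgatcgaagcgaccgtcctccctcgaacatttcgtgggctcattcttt
SMOC2: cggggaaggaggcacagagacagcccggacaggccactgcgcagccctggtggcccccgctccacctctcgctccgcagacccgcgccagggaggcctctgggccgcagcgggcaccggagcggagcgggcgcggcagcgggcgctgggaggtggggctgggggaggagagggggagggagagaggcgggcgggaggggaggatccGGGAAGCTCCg
The OLFM4 promoter held 1 RBPJ core, 249 bases before the RefSeq start, and 1 reverse-strand CTTTGT, 226 bases before it. SMOC2 held 1 NF-kB match 44 bases before its start, and the window of RGMB shown held no match in these letters. Among all 35116 RefSeq promoters searched over the 250 bases before the start, 20.8% held the RBPJ core, 11.2% CTTTGA, 13.7% CTTTGT and 9.96% the NF-kB consensus, so such matches are frequent by this search. Of the 10 genes, 6 were matched to promoters, and EPHB2, EPHB3 and CD44 held no match in theirs; LGR5, ASCL2, PROX1 and MSI1 were not searched here.

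Depth was even, with 39026605 to 44724971 expected counts in the B libraries and 41231348 to 45050991 in the A libraries. Levels below are CPM, counts scaled to a common library total. RNASE1, the targeted gene, stood at 1.38, 3.75 and 1.57 CPM in sg1, sg2 and sg3 B and at 1.02, 3.36 and 1.66 CPM in sg1, sg2 and sg3 A. In the NTC libraries RNASE1 stood at 23.7 and 22.9 CPM in NTC1 and NTC2 B and at 16.4 and 19.1 CPM in NTC1 and NTC2 A. The guide lines were lower on the log2 scale by a fitted difference of -3.26 (SE 0.23, edgeR adjusted p = 8.37e-05). All 8 of 8 colonic epithelial markers averaged at least 1 CPM. Their summed level was 6018 to 6983 CPM in B libraries and 7383 to 7587 CPM in A libraries, without overlap, and KRT8 and KRT18 made up most of it. By letter, KRT8, KRT18, CDX1 and CDH17 were lower in B, at -0.38, -0.38, -0.09 and -0.14 on the log2 scale, whereas CDX2 was higher by 0.17 and VIL1 by 0.16 (edgeR adjusted p of 0.0299 or less for each). EPCAM and LGALS4 were not called, at -0.08 and 0.06. The leukocyte gene PTPRC, the endothelial gene KDR and the fibroblast gene COL1A2 were at 0 in all libraries, but other genes of these lists were not. Summed leukocyte markers reached 8.29 to 9.45 CPM in B libraries and 8.99 to 10.5 CPM in A libraries. Most of this was CD68, at a mean of 8.39 CPM, with CD14 at 0.93 CPM. Summed endothelial markers reached 0.143 to 0.358 CPM in B libraries and 0.0224 to 0.164 CPM in A libraries. Summed fibroblast markers reached 3.74 to 5.32 CPM in B libraries and 3.83 to 4.93 CPM in A libraries, with COL3A1, LUM and PDGFRB at 1 CPM or more.

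Levels of the 10 markers were compared per length of exon. Means over the 10 libraries, in CPM per kilobase of exon, were 142 ± 6.26 for ASCL2, 122 ± 5.83 for EPHB3 and 122 ± 62.2 for OLFM4 (SD). The place of OLFM4 depended on the letter. In B it was above EPHB3 in 4 of 5 libraries and above ASCL2 in 3, those of sg3, NTC1 and NTC2, whereas in A it was below both in 5 of 5. With the longest transcript as length, OLFM4 was above EPHB3 in 3 of 5 B libraries, those of sg3, NTC1 and NTC2. CD44, a hyaluronan receptor found on crypt base cells, followed at 53.1 ± 1.65 CPM per kilobase (SD), and EPHB2 at 42.0 ± 3.57. CD44 has many isoforms, and with the longest transcript as its length it had a mean of 92.7 CPM per kilobase. On that length CD44 was above OLFM4 in 4 of 5 A libraries and in 1 of 5 B libraries, that of sg1. EPHB2 and EPHB3 are receptors for ephrin-B ligands that keep crypt base cells in place and are Wnt targets. RGMB averaged 16.3 ± 3.29, SMOC2 16.2 ± 2.57 and LGR5 14.5 ± 1.26 CPM per kilobase, and the ranges of these neighbours overlapped. PROX1, a homeobox transcription factor, averaged 2.85 ± 0.475 CPM per kilobase. The spread of OLFM4 was the widest of the 9 markers with usable counts on this scale, as its lowest library had 63.8 and its highest 234 CPM per kilobase.

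**Figure D1:**
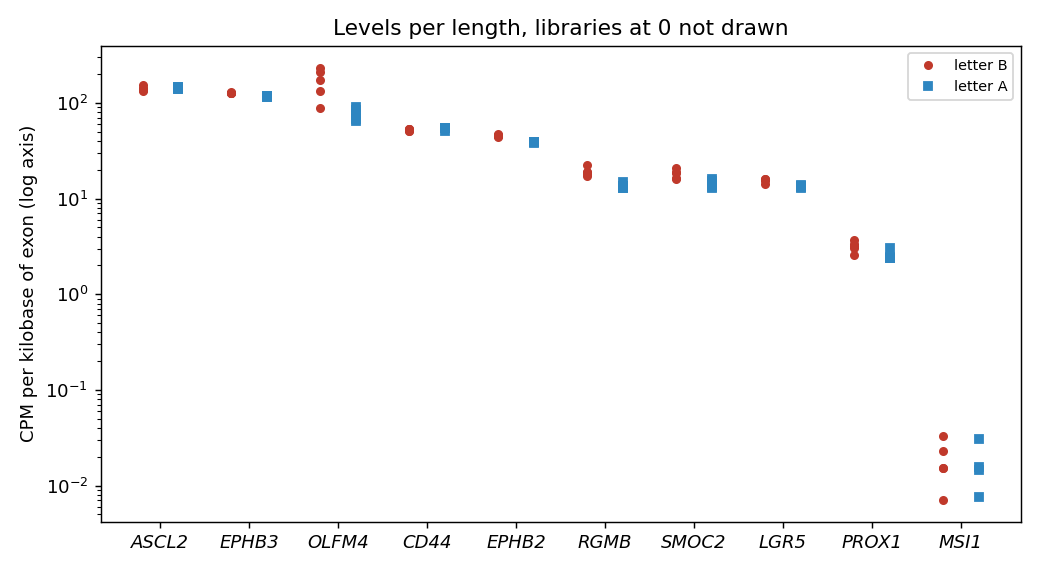
Each marker's level per kilobase of exon (log axis) in the 5 B libraries (red circles) and the 5 A libraries (blue squares), ordered by mean. OLFM4 spans 63.8 to 234 CPM per kilobase while its neighbour EPHB3 stays between 116 and 131, and MSI1 lies far below the rest.

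MSI1, an RNA-binding protein of the Musashi family, was nearly silent. It had 4, 2, 3, 1 and 2 counts in the B libraries of sg1, sg2, sg3, NTC1 and NTC2, and 2, 2, 1, 4 and 0 counts in the A libraries of the same lines. These 21 counts were too few for the filter on low counts, so 8 markers beside OLFM4 were tested. No difference in MSI1 was detectable at this depth.

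OLFM4, at chr13:53028759-53052057 on the plus strand (GRCh38), differed between libraries more than nearly any other gene with a mean of at least 10 CPM. In the B libraries it stood at 255 CPM in sg1, 382 in sg2, 497 in sg3, 610.1 in NTC1 and 677 in NTC2. In the A libraries it stood at 185 CPM in sg1, 197 in sg2, 221 in sg3, 246 in NTC1 and 261 in NTC2. B was above A in every line, and the lines kept 1 order under both letters, with sg1 lowest and NTC2 highest. B and A libraries overlapped across lines, since sg1 B was below NTC2 A. These levels rest on 7634 to 28501 counts per library, so counting error is small beside the differences. In bulk RNA, fewer cells with OLFM4 and less OLFM4 RNA per cell cannot be told apart.

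**Figure D2:**
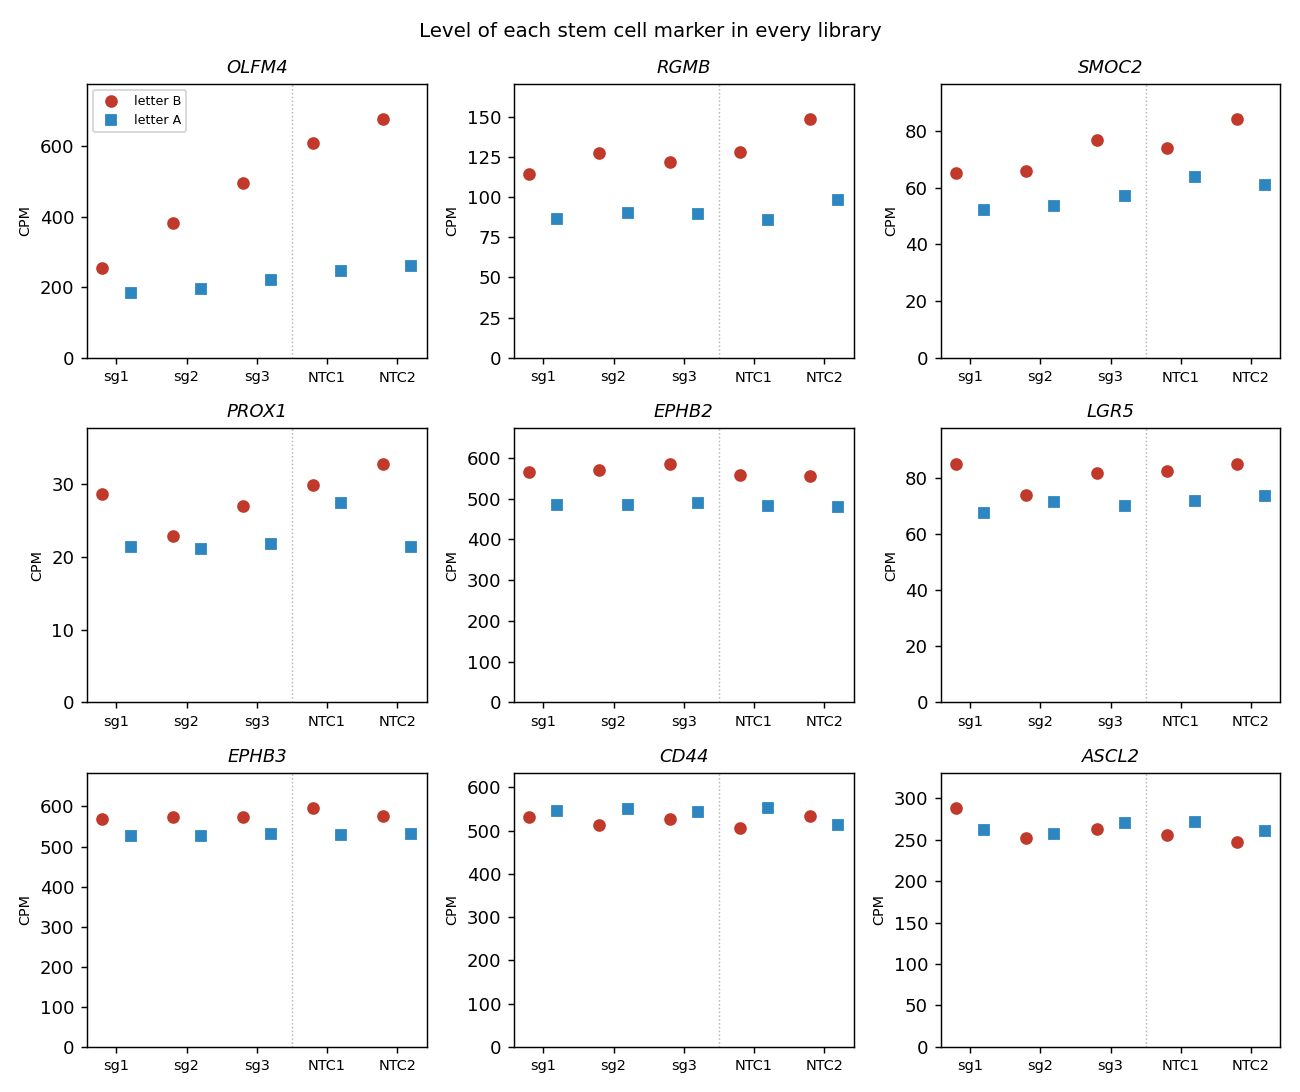
CPM of OLFM4 and the 8 other tested markers in each line, with letter B as red circles and letter A as blue squares, each panel on its own axis from 0; the dotted line parts guide lines from NTC lines. In B, OLFM4 is lowest in sg1 (255 CPM) and highest in NTC2 (677 CPM), while CD44 and ASCL2 stay nearly level.

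The highest and lowest OLFM4 library differed 3.66-fold, a range of 1.87 on the log2 scale. The median gene with a mean of at least 10 CPM had a range of 0.24, or 1.18-fold, over the same libraries. Of 9527 such genes, which do not include RNASE1 at 1.02 to 23.7 CPM, 3 had a wider range than OLFM4. They were RPS3AP26 at 3.14, CT47A11 at 2.61 and AC138894.1 at 1.93 log2, named because only they lay above it, and their means of 11.4 to 18.6 CPM were far below the 353 CPM of OLFM4. RPS3AP26 is a pseudogene and CT47A11 belongs to a family of near-identical copies, so reads may be split among copies and these values are uncertain. Among the other markers the range was 0.80 for RGMB, 0.69 for SMOC2 and 0.63 for PROX1. LGR5 had a range of 0.34, EPHB2 0.29, ASCL2 0.22, EPHB3 0.18 and CD44 0.13. CD44 varied less than most genes, with 92.5% of the 9527 genes wider.

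Between the letters, OLFM4 was higher in B by 1.06 on the log2 scale (SE 0.09), a fitted 2.08-fold difference with line as a block. The B to A ratio was 1.38 in sg1, 1.94 in sg2, 2.25 in sg3, 2.48 in NTC1 and 2.59 in NTC2. Thus the ratio differed from line to line and was smallest in sg1. Each ratio rests on 1 library of each letter, so differences between lines and between single libraries cannot be told apart. The sum of squares of log2 OLFM4 over the 10 libraries divided into 65.5% for letter, 19.0% for guide against NTC lines, 9.17% for lines within those arms, 3.23% for a letter difference that varied with arm and 3.13% for the rest.

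The letter comparison called 29.6% of the 16411 genes tested, with 14.6% higher in B and 15.0% lower in B (edgeR quasi-likelihood test, adjusted p under 0.05). Against that background, 6 of the 8 other tested markers were higher in B and 0 were lower. Their median difference was 0.22 on the log2 scale, against 0.0004 over all genes. B libraries lay wholly above A libraries for 5 of the 8, namely LGR5, SMOC2, EPHB2, EPHB3 and RGMB, where 9.64% of all tested genes did so. The epithelial markers KRT8 and KRT18 moved with the letter as well, at -0.38 each, while CDX2 and VIL1 moved the other way, and their part in these differences was not tested.

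RGMB, a co-receptor for bone morphogenetic proteins, came nearest to OLFM4 in size. It stood at 114, 127, 122, 128 and 148 CPM in the B libraries of sg1, sg2, sg3, NTC1 and NTC2, and at 86.5, 90.1, 89.2, 85.4 and 98.4 CPM in the A libraries. Every B library was above every A library, and NTC2 was highest under both letters. The fitted difference was 0.51 on the log2 scale (SE 0.03, edgeR adjusted p = 8.52e-07). The protocol names no strand marking, so RGMB cannot be separated from the antisense genes AC008522.1 and RGMB-AS1. They cover 40.2% and 5.44% of its exon bases but had at most 30 and 36 counts in any library, against at least 3572 for RGMB. Genes opposite LGR5, EPHB2 and CD44 had at most 1 count in any library.

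SMOC2, a secreted calcium-binding matrix protein of the crypt base, stood at 65.0, 65.9, 76.7, 74.1 and 84.0 CPM in the B libraries of sg1, sg2, sg3, NTC1 and NTC2. In the A libraries SMOC2 had 52.1, 53.5, 56.9, 63.8 and 61.0 CPM in the same lines. The letters did not overlap, though sg1 B lay only just above NTC1 A. SMOC2 rose in B by 0.35 on the log2 scale (SE 0.04, edgeR adjusted p = 2.38e-05).

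PROX1 was more scattered. It stood at 28.7, 22.8, 27.0, 29.9 and 32.7 CPM in the B libraries of sg1, sg2, sg3, NTC1 and NTC2, and at 21.4, 21.1, 21.8, 27.4 and 21.4 CPM in the A libraries. NTC1 A was above sg2 B and sg3 B, so the letters overlapped. The fitted difference was 0.32 (SE 0.06, edgeR adjusted p = 0.00201). PROX1-AS1, on the opposite strand, shares 1.92% of the PROX1 exon bases and had 55 to 91 counts per library, against 882 to 1379 for PROX1.

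LGR5, the best known marker of the group, stood at 84.7, 73.7, 81.7, 82.4 and 84.9 CPM in the B libraries of sg1, sg2, sg3, NTC1 and NTC2, and at 67.3, 71.3, 69.7, 71.8 and 73.4 CPM in the A libraries. It rose in B by 0.20 on the log2 scale (SE 0.04, edgeR adjusted p = 9.83e-04), and the smallest difference was in sg2, with a ratio of 1.03. B and A did not overlap, but sg2 B was above NTC2 A by less than 1 CPM.

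The ephrin receptors showed small and even differences. EPHB2 had 555 to 585 CPM in B libraries (median of the 5, 565) and 479.7 to 488 CPM in A libraries (median 483), with no overlap. Its letter difference was 0.23 (SE 0.02, edgeR adjusted p = 2.00e-05), and letter took 97.0% of its sum of squares. EPHB3 had 568 to 595 CPM in B and 526 to 532 CPM in A, again without overlap, a difference of 0.13 (SE 0.02, edgeR adjusted p = 0.00137).

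CD44 and ASCL2 were not called between the letters. CD44 had 505 to 534 CPM in B and 512 to 551 CPM in A, with a difference of -0.05 on the log2 scale (95% interval -0.11 to 0.01, edgeR adjusted p = 0.231). Its letter difference was called in the edgeR fits that left out NTC2 B or NTC2 A, at -0.07 in both (adjusted p = 0.0487 and 0.0486). ASCL2 had 247 to 288 CPM in B and 257 to 271 CPM in A, a difference of -0.02 (95% interval -0.09 to 0.05, edgeR adjusted p = 0.723). Its B library was above A in sg1 at 288 against 262 CPM, and below A in the other 4 lines. Both intervals lie far below the OLFM4 difference of 1.06.

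**Figure D3:**
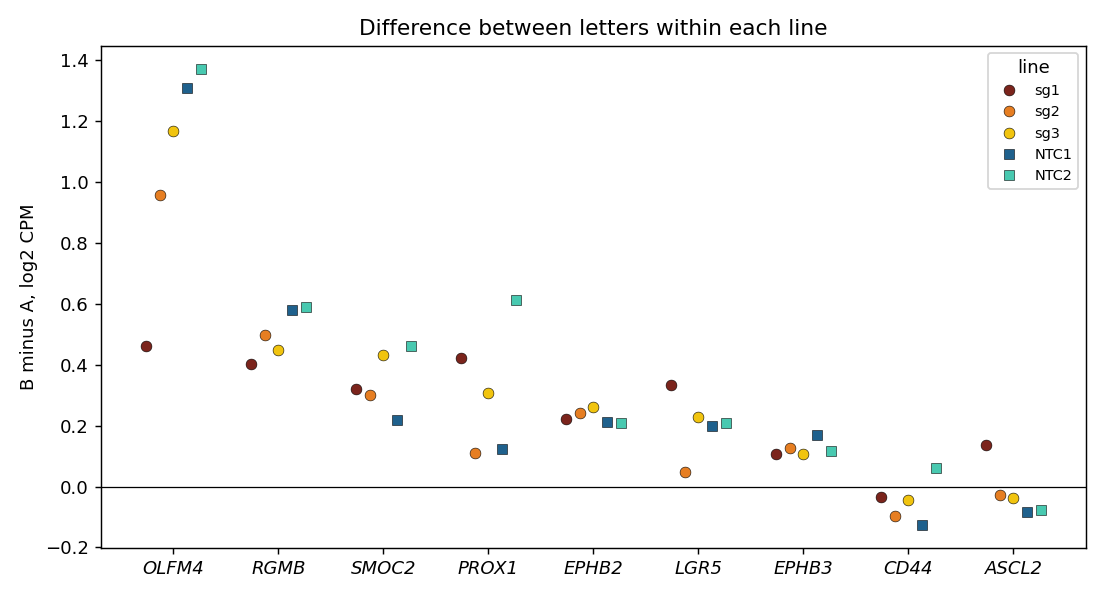
Letter B minus letter A in log2 CPM within each line, by marker, with guide lines as circles and NTC lines as squares. OLFM4 runs from 0.46 in sg1 to 1.37 in NTC2, above every other marker in the same line, and CD44 and ASCL2 scatter about 0.

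The same OLFM4 counts can be set against those of each marker within a library, which needs no scaling. The number of OLFM4 counts per LGR5 count was 3.01 to 7.97 in B libraries and 2.75 to 3.56 in A libraries. Per ASCL2 count it was 0.885 to 2.74 in B and 0.707 to 1.00 in A. The ratio was higher in B in 5 of 5 lines for each of the 8 markers. This restates the larger letter difference of OLFM4 in every line and adds no separate evidence.

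Between the guide lines and the NTC lines, OLFM4 averaged 289 ± 69.7 CPM in the 3 guide lines and 449 ± 28.95 CPM in the 2 NTC lines (SD over lines, mean of B and A per line). The fitted difference was -0.65 on the log2 scale (SE 0.13), given for its size only. Without NTC2 B, a fit in which 1 NTC line lacks its B library, it was -0.28. It was -0.82 among the B libraries alone and -0.34 among the A libraries alone, as differences of mean log2 CPM. All guide libraries were below all NTC libraries within B and within A, which held for 1.52% of the tested genes. OLFM4 was chosen with its guide swing known, so this share is no test of it. By guide line against both NTC lines, the fitted OLFM4 difference was -1.03 for sg1 (SE 0.51), -0.63 for sg2 (SE 0.50) and -0.32 for sg3 (SE 0.49). These 3 comparisons share the NTC libraries. Leaving out single libraries, which leaves a line without 1 letter, moved the sg1 value between -1.29 without NTC2 A and -0.61 without NTC2 B. It moved the sg2 value between -1.19 without sg2 B and -0.21 without NTC2 B, with -0.23 without sg2 A or without NTC1 B. The sg3 value ran down to -1.02 without sg3 B and turned to 0.15 without sg3 A, 0.08 without NTC1 B and 0.10 without NTC2 B. Among the guide lines, RNASE1 and OLFM4 were both lowest in sg1 under both letters, and RNASE1 was highest in sg2 where OLFM4 was highest in sg3. Whether the 2 levels are linked was not tested. NTC2 exceeded NTC1 in OLFM4 by 0.13 (SE 0.56).

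The arm comparison called 0.0231% of 17335 genes, which is 4. With the letter as a block, 9 of 16411 genes were called. That fit used the 10 libraries, so its error is the spread between libraries within lines and not the spread between lines. OLFM4 was not among the 4 and was among the 9. As it was chosen for its swing, neither outcome is a test of it. None of the 8 other tested markers was called by edgeR (smallest adjusted p = 0.254), 3 had an unadjusted p under 0.05, as did 7.98% of all tested genes, and DESeq2 called 1, SMOC2. PROX1 averaged 23.8 ± 1.62 CPM in guide lines and 27.9 ± 1.11 CPM in NTC lines (SD), a difference of -0.23 (95% interval -0.35 to -0.11, edgeR adjusted p = 0.254). SMOC2 averaged 61.7 ± 4.45 CPM in guide lines and 70.7 ± 2.54 CPM in NTC lines, a difference of -0.20 (95% interval -0.31 to -0.09). For SMOC2 the edgeR adjusted p was 0.259 and the DESeq2 adjusted p 0.035. Without sg3 B, a fit in which sg3 keeps only its A library, the edgeR adjusted p was 0.0166. Without the line sg3 it was 0.0302. RGMB averaged 105 ± 4.13 CPM in guide lines and 115 ± 11.8 CPM in NTC lines, a difference of -0.14 (95% interval -0.25 to -0.03, edgeR adjusted p = 0.475). Without NTC2 B, a fit in which 1 NTC line lacks its B library, the edgeR difference was -0.10 for PROX1, -0.09 for SMOC2 and 0.02 for RGMB. Fits that keep the letters balanced gave other values. For PROX1, SMOC2 and RGMB in turn they were -0.23, -0.20 and -0.12 with the letter as a block. Without the line NTC2 they were -0.27, -0.17 and -0.04, and without the line NTC1 -0.19, -0.24 and -0.24.

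The remaining markers lay close to 0 between the arms. LGR5 differed by -0.07 (95% interval -0.13 to 0.0024), EPHB3 by -0.02, EPHB2 by 0.03, CD44 by 0.03 and ASCL2 by 0.04, all on the log2 scale. EPHB2 guide libraries were all above NTC libraries within both letters, as for 2.35% of tested genes, but its means were 529.6 ± 6.37 CPM in guide lines and 519 ± 2.57 CPM in NTC lines. The fitted values of EPHB2, EPHB3 and CD44 changed sign when certain single libraries were left out. In those fits a line lacks 1 letter, so the letter difference enters the arm difference. In B libraries alone and in A libraries alone, the edgeR values were 0.04 and 0.01 for EPHB2. They were -0.03 and -0.01 for EPHB3, and 0.02 and 0.03 for CD44. That of ASCL2 changed sign among the A libraries alone. None of the 4 was called by edgeR, so no direction is claimed for them here.

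**Figure D4:**
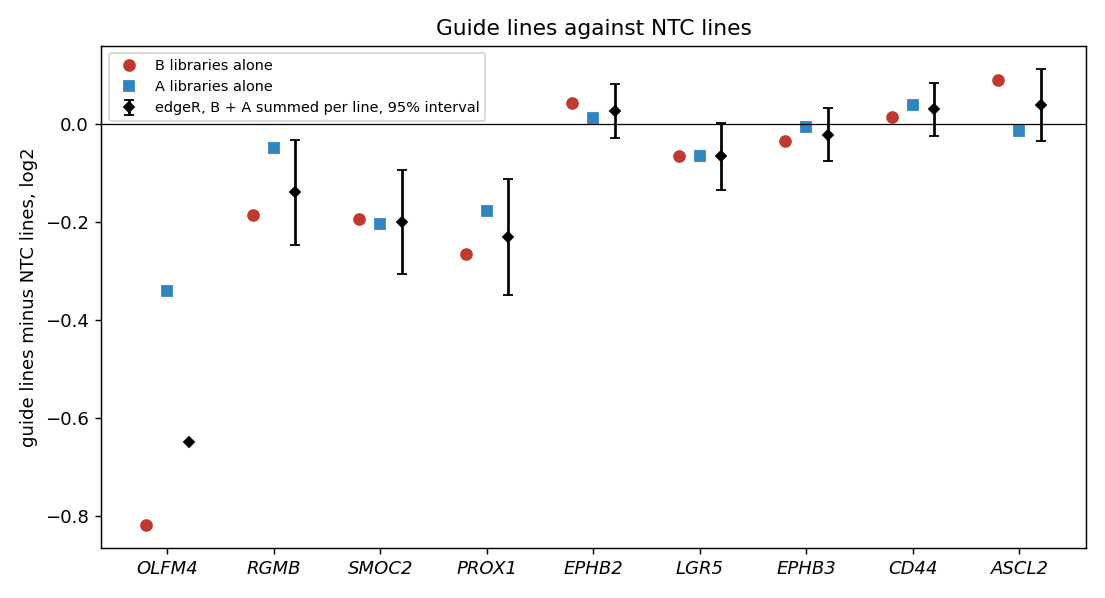
Guide lines minus NTC lines on the log2 scale, by marker, for B libraries alone (red circles), A libraries alone (blue squares) and the edgeR fit on counts summed per line (black), with its 95% interval for all but OLFM4. OLFM4 lies at -0.82, -0.34 and -0.65, and the points of the 8 other markers lie between -0.27 and 0.09.

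Single guide lines added no calls among the markers. Each of sg1, sg2 and sg3 against the NTC lines called 0.00609% of 16411 genes, which is RNASE1 alone in each. For the 8 other tested markers edgeR called 0 and DESeq2 called 0 in each of the 3 comparisons. None of the 8 had an unadjusted edgeR p under 0.05. Of all tested genes, 2.3% had one for sg1, 1.82% for sg2 and 2.16% for sg3. The letter spread within lines is part of the error in these fits. PROX1 in sg2 had the largest difference of the 8 there, at -0.34 (SE 0.18, edgeR adjusted p = 1). The comparison of NTC2 with NTC1 called 0% of genes, and so did the test among the guide lines. In both, edgeR called 0 of the 8 markers, 0 had an unadjusted p under 0.05 and DESeq2 called 0. Of all tested genes, 1.72% had such a p between the NTC lines and 1.38% among the guide lines. RGMB was higher in NTC2 than in NTC1 by 0.21 (SE 0.27, edgeR adjusted p = 1).

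Whether the letter difference varied with arm was tested as an interaction, which called 0% of 16411 genes (edgeR; 941 at an unadjusted p under 0.05; 3 by DESeq2). The letter difference of OLFM4 was smaller in guide lines, at a mean of 0.86 log2, than in NTC lines, at 1.34, a fitted gap of -0.47 (SE 0.14), or -0.27 without sg1 B. Among the 8 other markers edgeR and DESeq2 called 0, and 1 had an unadjusted p under 0.05. That 1 was RGMB, with a letter difference of 0.45 in guide lines and 0.59 in NTC lines (fitted gap -0.14, SE 0.06, edgeR adjusted p = 0.867). LGR5, at 0.20 in guide lines and 0.20 in NTC lines, showed a gap of 0.00 (95% interval -0.17 to 0.16).

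The genes most like OLFM4 were sought over all 10 libraries by the root mean square difference between log2 CPM profiles, each centred on its own mean, among 10756 genes with a mean of at least 5 CPM. OLFM4 itself varied by 0.65 about its mean on this scale. The nearest gene was FCGBP, which encodes a protein of goblet cell mucus, at 0.29. HEPACAM2, a cell adhesion protein, followed at 0.32, MUC2, the gel-forming mucin of the colon, at 0.35, and MDK, the growth factor midkine, at 0.36. KIAA1324 lay at 0.37 and NEURL1, a ubiquitin ligase of the Neuralized family, also at 0.37. These profiles share libraries, depth and the large letter difference, so the ranking is a description only.

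FCGBP stood at 178, 197, 218, 229 and 239 CPM in the B libraries of sg1, sg2, sg3, NTC1 and NTC2, and at 109, 114, 108, 116 and 117 CPM in the A libraries. Its B libraries kept the line order of OLFM4, whereas its A libraries were almost level. MUC2 stood at 111, 97.7, 117, 121 and 149.5 CPM in the B libraries of the same lines, and at 61.4, 73.5, 77.2, 82.8 and 84.7 CPM in the A libraries. The stem cell markers ranked lower in likeness, with RGMB at rank 20, SMOC2 at 26, PROX1 at 100, LGR5 at 690, EPHB2 at 741, EPHB3 at 1620, CD44 at 6840 and ASCL2 at 7290. The measure depends on the size of each gene's range, and a gene level over all libraries would lie at 0.65. CD44 and ASCL2 each lay at 0.68, so these ranks largely restate the smaller ranges of the markers.

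**Figure D5:**
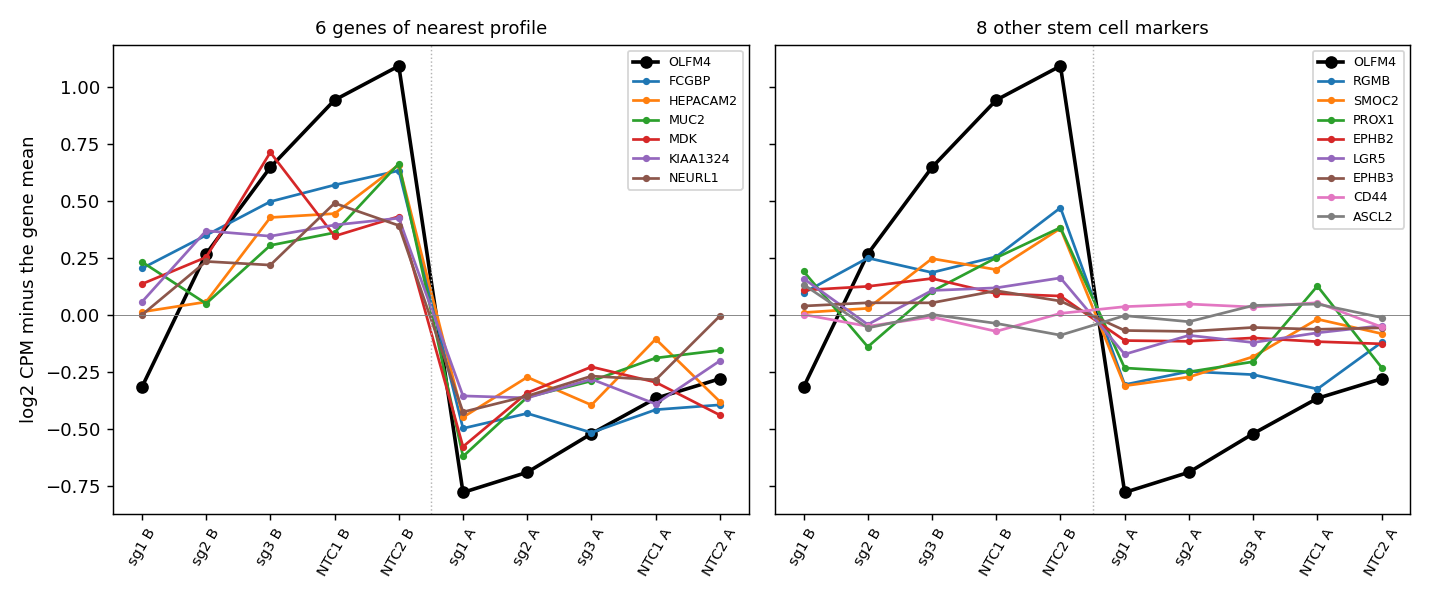
Log2 CPM minus each gene's mean over the 10 libraries, B libraries left and A libraries right, for OLFM4 (black) with the 6 genes of nearest profile (left panel) and with the 8 other tested markers (right panel). The 6 nearest genes share the letter step of OLFM4 but a smaller range, and RGMB, the nearest marker, ranks 20.

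Gene lists around these markers were counted in the letter comparison, beside the 29.6% of all genes called. Of 32 tested Wnt pathway and other stem cell genes, 16 were higher in B and 4 lower, with a median of 0.09 on the log2 scale. Among the genes called, the largest changes were in ALDH1A1, a retinaldehyde dehydrogenase used as a colon stem cell marker, at 0.63 (SE 0.04), and TERT, the telomerase reverse transcriptase, at 0.56 (SE 0.16). LGR6, a relative of LGR5, fell by 0.47 (SE 0.09), and LRIG1, an inhibitor of ERBB receptors, rose by 0.40 (SE 0.03). Their edgeR adjusted p-values were 5.16e-07 for ALDH1A1, 0.0159 for TERT, 0.00153 for LGR6 and 4.39e-06 for LRIG1.

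Of 17 tested Notch pathway genes, 7 were higher in B and 3 lower, with a median of 0.13. The ligands JAG2 at 0.50, DLL4 at 0.36 and DLL1 at 0.27 and the receptor NOTCH1 at 0.36 had the largest changes among those called. Their edgeR adjusted p-values were 1.52e-05 for JAG2, 8.41e-05 for DLL4, 0.0022 for DLL1 and 1.64e-06 for NOTCH1. Of 15 tested goblet and secretory genes, 8 were higher in B and 2 lower, with a median of 0.22. CLCA1, a protein of goblet cell mucus, was higher by 1.65 (SE 0.44, edgeR adjusted p = 0.0129) at a mean of only 0.374 CPM. FCGBP was higher by 0.90 (SE 0.04) and MUC2 by 0.65 (SE 0.05), while TFF1, a trefoil peptide, fell by 0.76 (SE 0.05). The edgeR adjusted p-values were 2.61e-07 for FCGBP, 4.39e-06 for MUC2 and 6.51e-07 for TFF1.

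Of 15 tested NF-kB targets and mucosal defence genes, 4 were higher and 3 lower in B, with a median of 0.08. The chemokine gene CXCL8 fell by 0.90 (SE 0.09, edgeR adjusted p = 1.38e-05) and BIRC3, an inhibitor of apoptosis, fell by 0.35 (SE 0.06, adjusted p = 0.00115). PLA2G2A, a secreted phospholipase, rose by 0.55 (SE 0.03, edgeR adjusted p = 2.80e-07), and the chemokine gene CXCL2 rose by 0.62 (SE 0.21, adjusted p = 0.0384). Of 8 tested enterocyte genes, 2 were higher and 2 lower, with a median of 0.08. KRT20, a keratin of differentiated cells, rose by 0.41 (SE 0.10) and VIL1, the microvillus protein villin, by 0.16 (SE 0.03), whereas the carbonic anhydrase gene CA2 fell by 0.69 (SE 0.12) and CEACAM6 by 0.47 (SE 0.07), each at an edgeR adjusted p of 0.00517 or less. Of 12 proliferation genes, 3 were higher and 5 lower, with a median of -0.04. MKI67 rose by 0.23 (SE 0.04), while BIRC5 fell by 0.24 (SE 0.03), the cyclin gene CCNB1 fell by 0.24 (SE 0.03) and the mitotic kinase gene AURKA fell by 0.19 (SE 0.03), each at an edgeR adjusted p of 0.00118 or less.

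Between the arms, edgeR called 0 members of each of the 6 lists. An unadjusted p below 0.05 was reached by 7 of the 32 Wnt and stem cell genes, 4 of the 17 Notch genes, 9 of the 15 goblet genes, 1 of the 8 enterocyte genes, 5 of the 15 NF-kB and defence genes and 1 of the 12 proliferation genes, where 7.98% of all tested genes reached it. DESeq2 called 1 listed gene, the cell cycle kinase gene CDK6. The edgeR fit on 10 libraries with the letter as a block called 1, REG1A. The goblet list had a median of -0.17 on the log2 scale, with 11 of 15 genes lower in guide lines, against -0.0008 over all genes. Between the 2 control lines the same list also leaned 1 way, with 13 of 15 genes higher in NTC2 than in NTC1 and a median of 0.09. FCGBP differed by -0.20 (SE 0.04, edgeR adjusted p = 0.22) and AGR2, a protein disulfide isomerase of goblet cells, by -0.10 (SE 0.04, adjusted p = 0.516). The Wnt and stem cell list had a median of -0.02, with CTNNB1, which encodes beta-catenin, at -0.07 (SE 0.03, edgeR adjusted p = 0.469) and the cotransporter gene SLC12A2 at -0.03 (SE 0.03, adjusted p = 0.859). In the Notch list NOTCH1 differed by 0.10 (SE 0.03, edgeR adjusted p = 0.415) and in the NF-kB and defence list PIGR, the polymeric immunoglobulin receptor, by 0.27 (SE 0.07, adjusted p = 0.328).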

How the data were processed

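Per the submitters' processing notes, CASAVA 1.8.2, FastQC 0.11.2, TopHat2 2.0.8 and build hg38 were used; the annotation release is not given in the sources used here. The authors deposited expected counts per gene from RSEM (7.12% not whole), which were rounded, changing a value by at most 0.5. All marker counts were whole. Tests used edgeR 4.0.16 (quasi-likelihood, TMM, filterByExpr, Benjamini-Hochberg adjustment over all tested genes) in R 4.3.3, with DESeq2 1.42.0 as an alternative. The edgeR fits were also run on simulated counts with known changes, to check the size of the estimates. Those counts held no other letter or line differences, so they do not measure false calls in these data. Letters were compared with line as a block; arms on B and A counts summed per line (3 against 2); single lines and guide lines among themselves on 10 libraries with line means; the interaction on 10 libraries. The arm fit with the letter as a block used 10 libraries, so libraries and not lines set its error. Standard errors are the log2 difference over the root of F. Letters pair the libraries: deviations of same-lettered libraries from line means correlated over 0.1 in 10 of 10 pairs of lines over 9527 genes at 10 CPM or more (0.483 to 0.779), and in 8 of 10 over all tested genes. Replicate libraries differed beyond sampling noise (chi-square per degree of freedom 10.7 to 22.0). Exon lengths are from GENCODE release 29, matched by gene identifier for 58597 of 58870 genes. From each list the text names up to 4 called genes of largest change, or else up to 2 of highest level. The markers and lists were chosen with earlier results of these data known.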

Additional observations from a re-analysis of the deposited data

Results flagged for a closer look

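A sample far from the others was sought for each marker and RNASE1 within the guide, NTC, B and A libraries, 44 groups in all, of which chance flags about 1 in 20. It was found in 3 of the 44. LGR5 in sg2 B stood at 73.7 CPM, while the other B libraries had 81.7 to 84.9 CPM. PROX1 in NTC1 A stood at 27.4 CPM, while the other A libraries had 21.1 to 21.8 CPM. CD44 in NTC2 A stood at 512 CPM, while the other A libraries had 544 to 551 CPM. No library of OLFM4 stood apart in this way, and the 3 libraries involved differ.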

How the results depend on the processing

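The letter comparison was stable: the OLFM4 difference stayed between 0.98 and 1.21 without any 1 library, 6 or 7 other markers were called, and all genes called numbered 3399 to 4936. Between the arms the OLFM4 difference was -0.58 with the letter as a replicate block, and -0.95 to -0.28 without any 1 library, the smallest without NTC2 B, which unbalances the letters; other markers called were 0 to 1 and all genes 1 to 12. Other markers called between the arms were 3 with no filter on low counts (SMOC2, PROX1, RGMB), 1 by DESeq2 and 1 without line sg3. The block changed the call of OLFM4 and of none of these other markers. All genes called between the arms were 238 with no filter, 55 by DESeq2, 9 with the block, 11 in A libraries alone, 10, 7 and 13 without lines sg1, sg2 and sg3, and 29 without NTC1. With no filter, calls were 69, 95 and 86 for sg1, sg2 and sg3, 57 for NTC2 against NTC1, 141 among the guide lines and 101 for the interaction. DESeq2 gave 6, 4, 4, 2, 8 and 3 in that order, and the block 4, 2, 6, 2 and 8 for the first 5. Without any 1 library these counts were 1 to 2 for sg1, 0 to 2 for sg2, 1 to 1 for sg3, 0 to 1 for the NTC lines, 0 to 2 among guide lines and 2 to 8 for the interaction. The cause was not tested.

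Some small differences changed sign. ASCL2 moved to 0.0009 between letters without line NTC2 and to -0.0194 between arms in A libraries alone. Without any 1 library, arm differences ran from -0.0270 to 0.0809 for EPHB2, -0.0659 to 0.0218 for EPHB3, -0.0033 to 0.0561 for CD44 and -0.28 to 0.02 for RGMB. Each such fit leaves a line without 1 letter, so the letter difference enters these values. OLFM4 ran from -1.29 to -0.61 for sg1 and -1.19 to -0.21 for sg2 against NTC lines, from -1.02 to 0.15 for sg3 against NTC lines and from -0.71 to 0.93 for NTC2 against NTC1, in fits where a letter is missing from a line. With the longest transcript as length, the order of the mean levels over all 10 libraries was kept. On that length CD44, at a mean of 92.7 CPM per kilobase, was above OLFM4 in 4 of 5 A libraries and 1 of 5 B libraries. OLFM4 was above EPHB3 in 3 of 5 B libraries instead of 4. Of the 6 genes most like OLFM4, 2 stayed with a minimum of 1 CPM and 1, HEPACAM2, with B and A centred separately. With 2 libraries per line, small differences in single lines could not be resolved.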
